A study of Mus musculus with 12 samples.

Results

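The data described here compare p18-overexpressing with normal tissue at embryonic day E16.5, across all genes, in 6 of the 12 RNA-seq libraries of a study of mouse cortex development. The libraries were chosen by their titles alone, 3 named E16.5 p18mKO2+ and 3 named E16.5 p18mKO2-, and the measurement was the expected count of each gene. By their labels the p18mKO2+ embryos had the genotype p18mKO2 over-expression and the p18mKO2- embryos the genotype normal. The study's design text describes a conditional knock-in at ROSA26 in which a stop sequence flanked by loxP sites precedes p18 joined through P2A to the fluorescent protein mKO2, so that Cre is needed before p18 is made. Tamoxifen was given intraperitoneally in both groups. The comparison bears on how CDK inhibitors relate to the change from making neurons to making astrocytes. The driver of the tamoxifen-dependent Cre, the day of injection and the share of cells recombined could not be learned from the labels, and they do not say whether the p18mKO2- embryos carried the unrecombined allele. The tissue was ventricular zone of the dorsal cortex, cut out by laser microdissection, and polyadenylated RNA was sequenced after a directional library kit. Nothing in the labels says that replicates came from separate embryos or litters, so each p-value reflects library-to-library spread, part of which may be technical. The other 6 libraries, 3 p18mKO2+ and 3 p18mKO2- at E13.5, entered the fit and are used where the stages are set side by side.

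The gene Cdkn2c encodes p18 (p18INK4c), an inhibitor of the INK4 family. INK4 proteins bind the kinases CDK4 and CDK6 and keep them from pairing with D-type cyclins, so that retinoblastoma proteins stay unphosphorylated, E2F factors stay bound and a cell does not enter S phase. In the ventricular zone radial glia divide, make neurons first and astrocytes later, and pass through Notch-dependent and proneural states on the way. GABAergic interneurons and striatal neurons are made in the ganglionic eminences of the ventral telencephalon, outside the dorsal cortex, and interneurons then migrate into it.

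Estimated counts summed to between 18225800 and 21669700 per library at E16.5, and levels are given as CPM, the read count relative to the TMM-scaled library total. Values in brackets after a pair of groups are log2 fold changes, p18mKO2+ over p18mKO2-, with their SE. Across the 16798 genes tested, log2 CPM correlated at 0.960 to 0.983 within p18mKO2+, 0.945 to 0.965 within p18mKO2- and 0.95 to 0.974 between the groups. The ribosomal RNA gene CT010467.1 took 2.75%, 1.79% and 3.97% of all counts in the p18mKO2+ libraries (replicates 1 to 3), against 13.6%, 8.40% and 6.28% in the p18mKO2- libraries, with no overlap. Transcripts of embryo sex were also unevenly spread. Among p18mKO2+ libraries, replicates 1 and 2 held Y-linked transcripts with little Xist and replicate 3 held both (Xist at 656 CPM, 4 Y-linked genes summing to 81.7 CPM); among p18mKO2- libraries, replicates 1 and 3 held Xist and almost no Y-linked transcripts and replicate 2 the reverse. Markers of dorsal progenitors were present in all 6 libraries. The radial glia gene Pax6 stood at 115, 112 and 102 CPM in p18mKO2+ and 125, 128 and 75.1 CPM in p18mKO2-, and the dorsal homeobox gene Emx1 at 38.8, 34.2 and 39.3 CPM in p18mKO2+ and 56.3, 55.3 and 33.8 CPM in p18mKO2-. Summed markers of 12 microglia genes lay at 64.8 to 70.4 CPM in p18mKO2+ and 51.8 to 82.7 CPM in p18mKO2-, and those of 15 endothelial and pericyte genes at 329 to 398 and 332 to 369.6 CPM. Values below are given for replicates 1, 2 and 3 in that order.

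The targeted gene was examined first. Cdkn2c (ENSMUSG00000028551, GRCm38 chr4:109660876-109667189, minus strand) stood at 30.2, 30.95 and 25.8 CPM in p18mKO2+ libraries and at 22.5, 31.8 and 15.1 CPM in p18mKO2- libraries. The groups overlapped, because p18mKO2- replicate 2 exceeded all 3 p18mKO2+ libraries, and the log2 fold change was 0.32 ± 0.26 (SE; edgeR quasi-likelihood test, Benjamini-Hochberg adjusted p = 1). In deposited TPM, which divides by transcript length, the gene stood at 38.2, 43.5 and 32.1 in p18mKO2+ and at 19.6, 28.7 and 13.7 in p18mKO2-. Every p18mKO2+ library was then above every p18mKO2- library, with means of 37.96 ± 5.73 and 20.6 ± 7.56 TPM (SD, n = 3 each). The exact two-sided permutation p of that difference was 0.1, the smallest that 3 libraries against 3 can give. The deposited length of Cdkn2c, an average over its transcripts weighted by abundance, was 1693, 1539 and 1440 bases in p18mKO2+ and 2012, 1941 and 1610 bases in p18mKO2-, and these groups overlapped (exact permutation p = 0.2). After each library's TPM was rescaled by its median ratio of TPM to CPM, the difference of 17.3 TPM became 12.1 TPM and the groups remained apart (exact permutation p = 0.1). By count, then, the targeted gene gave overlapping groups, and by TPM it did not. Reads of the knock-in transcript and of the endogenous gene cannot be told apart in these tables.

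None of the other cell-cycle inhibitors or G1 genes passed the test, and none had groups that did not overlap. Of the 7 CDK inhibitor genes listed, Cdkn2a and Cdkn2b did not pass the filter on low counts. Cdkn1a, which encodes the p53-induced inhibitor p21, stood at 8.21, 8.58 and 6.13 CPM in p18mKO2+ and 4.91, 7.22 and 3.48 CPM in p18mKO2- (log2 fold change 0.55 ± 0.33). Cdkn1c, which encodes p57, stood at 47.3, 53.1 and 49.7 CPM in p18mKO2+ and 43.3, 56.3 and 111 CPM in p18mKO2- (-0.49 ± 0.29), where p18mKO2- replicate 3 was the high library. The p27 gene Cdkn1b had a log2 fold change of -0.21 ± 0.18 and the p19INK4d gene Cdkn2d one of -0.003 ± 0.20. Among the D-type cyclins that CDK4 and CDK6 need, Ccnd2 had the highest counts, 753, 846 and 654 CPM in p18mKO2+ and 671, 698 and 437 CPM in p18mKO2- (0.32 ± 0.20). Ccnd1 and Ccnd3 had log2 fold changes of 0.02 ± 0.23 and 0.21 ± 0.19, the E-type cyclins Ccne1 and Ccne2 of -0.05 ± 0.26 and -0.27 ± 0.21, and the kinases Cdk2, Cdk4 and Cdk6 of 0.02 ± 0.21, -0.02 ± 0.15 and 0.08 ± 0.28 (adjusted p = 1 for each of these 12 genes, edgeR). In all 8 of these G1 genes p18mKO2- replicate 3 was the lowest of the 6 libraries.

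**Figure D1:**
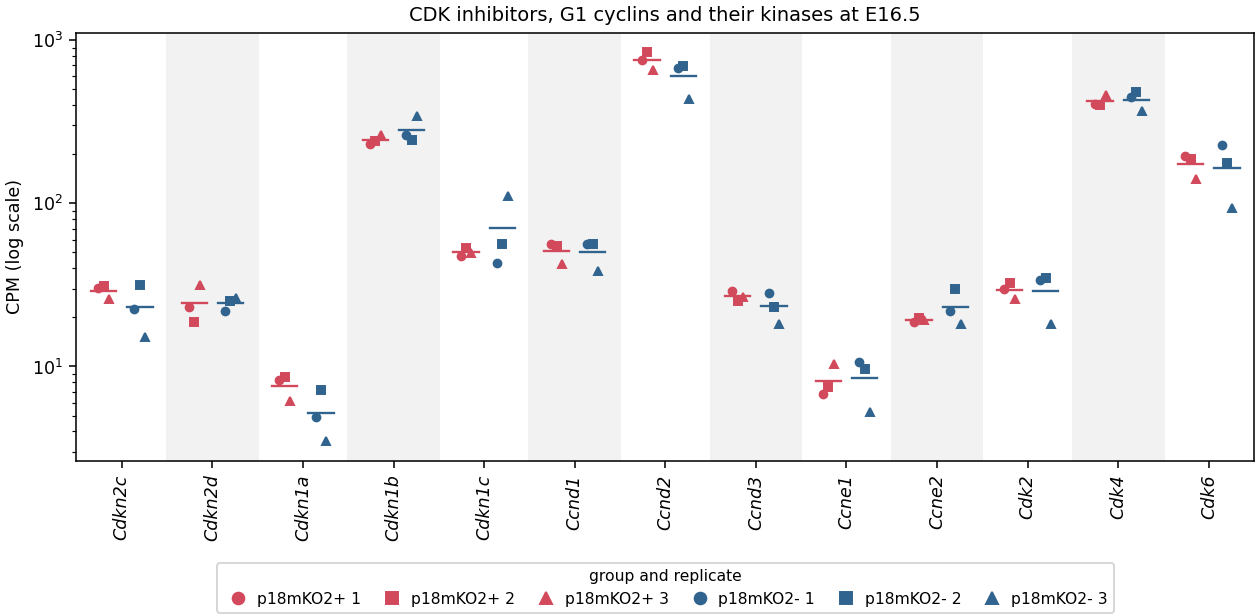
CPM on a log scale for the 5 CDK inhibitors that passed the filter on low counts and 8 G1 cyclins and kinases in the E16.5 libraries. Each point is a library, bars are group means, p18mKO2+ is left of p18mKO2- in each pair, and the 2 groups overlap for every gene.

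Across all 16798 genes, edgeR called none at an adjusted p under 0.05 (0%), and the smallest adjusted p was 0.154. At an unadjusted p under 0.05 there were 201 higher and 225 lower genes in p18mKO2+, 1.2% and 1.34% of those tested and together 2.54%. Groups did not overlap, with all 3 p18mKO2+ libraries above all 3 p18mKO2- libraries, for 683 genes (4.07%), and with all 3 below for 652 genes (3.88%), together 7.95%. A positive log2 fold change was seen in 48.1% of genes. The median log2 fold change over all genes was -0.01. Other tests on the same libraries gave other counts: DESeq2 called 16 of 16771 genes (0.0954%), limma-voom 2 (0.0119%), and edgeR on unfiltered counts 81 of 27180 (0.298%), of which 54 were higher in p18mKO2+ (0.199%). Leaving out p18mKO2+ replicate 3 gave 1 edgeR call, mt-Rnr1, and leaving out p18mKO2- replicate 3 gave 1, Ikzf1. Nothing below therefore passed the edgeR test at E16.5, and "higher" or "lower" names the sign of a fold change or groups that did not overlap.

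Genes of the ventral telencephalon were higher in p18mKO2+ libraries by sign and mostly without overlap. Of 14 GABAergic and ventral telencephalon genes, all of which passed the filter, 14 had a positive log2 fold change, and in 10 the groups did not overlap, against 4.07% of all genes; none was called by edgeR, 1 by DESeq2 (against 0.0954% of all genes) and 8 by edgeR without a filter (against 0.298%). Their median log2 fold change was 1.19. This list and those below were written with earlier results of these data known, or after their values were seen. Counts within the lists are therefore not independent of the data. Dlx2, a homeobox factor of the ganglionic eminences that directs GABAergic fate, stood at 51.4, 78.8 and 56.2 CPM in p18mKO2+ and 26.03, 19.1 and 24.3 CPM in p18mKO2-. Every p18mKO2+ library lay above every p18mKO2- library, and the log2 fold change was 1.42 ± 0.32 (edgeR adjusted p = 0.899; DESeq2 adjusted p = 0.0175). Its neighbour Dlx1 stood at 119.6, 183 and 139.5 CPM in p18mKO2+ and 58.6, 56.6 and 103 CPM in p18mKO2- (1.02 ± 0.34). Dlx5, a later Dlx factor, stood at 22.5, 36.4 and 23.4 CPM in p18mKO2+ and 11.1, 9.11 and 16.3 CPM in p18mKO2- (1.17 ± 0.30). Dlx6 stood at 13.9, 27.4 and 11.01 CPM in p18mKO2+ and 2.95, 2.798 and 10.4 CPM in p18mKO2-, where p18mKO2- replicate 3 lay just under the lowest p18mKO2+ library. Gsx2, a homeobox gene of lateral ganglionic eminence progenitors, was scarce, at 3.22, 4.91 and 3.41 CPM in p18mKO2+ and 0.921, 1.63 and 1.796 CPM in p18mKO2- (1.40 ± 0.42).

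Genes that make and package GABA followed the same order. The glutamate decarboxylase gene Gad2 stood at 79.4, 116 and 59.1 CPM in p18mKO2+ and 29.7, 35.1 and 43.98 CPM in p18mKO2- (1.23 ± 0.41), and the vesicular GABA transporter gene Slc32a1 at 22.5, 27.3 and 19.3 CPM in p18mKO2+ and 9.46, 10.7 and 9.79 CPM in p18mKO2- (1.21 ± 0.43). Gad1, the other decarboxylase, overlapped by a narrow margin, at 45.5, 67.6 and 37.6 CPM in p18mKO2+ and 22.5, 22.6 and 37.95 CPM in p18mKO2- (0.86 ± 0.37). Genes of the medial ganglionic eminence, which makes most cortical interneurons, overlapped between the groups. Lhx6, a LIM homeobox gene of those interneurons, stood at 63.8, 64.5 and 59.5 CPM in p18mKO2+ and 56.4, 49.4 and 60.1 CPM in p18mKO2- (0.18 ± 0.32). Nkx2-1, which marks their progenitors, stood at 0.705, 1.74 and 2.12 CPM in p18mKO2+ and 0.43, 0.509 and 0.811 CPM in p18mKO2-. It was close to 0 in both groups, and its log2 fold change was 1.38, on the higher side like those of the Dlx genes. The difference between these genes and the Dlx genes was not tested. In bulk tissue, more cells of a type and more RNA per cell cannot be told apart.

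Six3, which encodes a homeodomain protein of the anterior and ventral brain, had the largest log2 fold change of the 14. It lies on GRCm38 chr17:85613608-85629302 (plus strand) and stood at 16.4, 38.1 and 17.97 CPM in p18mKO2+ and 1.903, 4.27 and 9.33 CPM in p18mKO2- (2.22 ± 0.56; edgeR adjusted p = 1). Six3os1 (chr17:85600651-85618398, minus strand), a noncoding transcript that overlaps it, stood at 19.4, 40.6 and 21.3 CPM in p18mKO2+ and 3.13, 6.16 and 5.33 CPM in p18mKO2- (2.47 ± 0.45; edgeR adjusted p = 0.475; DESeq2 adjusted p = 3.82e-05). The genes lie on opposite strands and overlap, and without knowing whether counting used strand, their reads cannot be assumed to be separated.

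Striatal and olfactory-type neuron genes lay on the same side, with a wider range of folds and a similar median. Of 18 listed, which share Sp8 with the ventral list, all passed the filter, 18 had a positive log2 fold change, and 12 had groups that did not overlap, against 4.07% of all genes; edgeR called none, DESeq2 3 (against 0.0954% of all genes) and edgeR without a filter 11 (against 0.298%). The median was 1.13. Ikzf1, the zinc-finger factor Ikaros, stood at 20.5, 29.8 and 9.67 CPM in p18mKO2+ and 1.04, 1.17 and 5.74 CPM in p18mKO2- (2.91 ± 0.60; edgeR adjusted p = 0.737; DESeq2 adjusted p = 0.00101). Without p18mKO2- replicate 3, the highest of its group, the log2 fold change of Ikzf1 became 4.18 and edgeR called it (adjusted p = 0.0376). Zfp503, a zinc-finger gene of the developing striatum, stood at 14.5, 26.6 and 9.58 CPM in p18mKO2+ and 1.41, 3.205 and 4.64 CPM in p18mKO2- (2.45 ± 0.56; DESeq2 adjusted p = 0.00607). Isl1, a LIM homeobox gene of striatal projection neurons, stood at 17.7, 35.3 and 9.905 CPM in p18mKO2+ and 0.614, 1.37 and 8.63 CPM in p18mKO2- (2.57 ± 0.84). In each of these, p18mKO2+ replicate 3 was the lowest of its group and p18mKO2- replicate 3 the highest of its own, so that the gap between the groups was narrow in Isl1.

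Receptors of both striatal output pathways were measured. Drd2, the D2 dopamine receptor gene, stood at 8.71, 13.8 and 6.08 CPM in p18mKO2+ and 1.53, 0.458 and 2.43 CPM in p18mKO2- (2.69 ± 0.96), and the adenosine receptor gene Adora2a, expressed in the same neurons, at 9.92, 12.1 and 8.57 CPM in p18mKO2+ and 3.56, 3.92 and 6.26 CPM in p18mKO2- (1.15 ± 0.30). Drd1, the D1 receptor gene, stood at 14.9, 12.7 and 17.4 CPM in p18mKO2+ and 10.9, 15.5 and 13.8 CPM in p18mKO2-, with overlap (0.16 ± 0.37). Ebf1, a transcription factor of direct-pathway neurons, overlapped at 68.2, 126 and 32.3 CPM in p18mKO2+ and 6.39, 5.14 and 38.6 CPM in p18mKO2- (2.17 ± 0.83). Foxp1, which cortical neurons express too, overlapped as well, at 176, 203 and 116 CPM in p18mKO2+ and 62.8, 51.1 and 133 CPM in p18mKO2- (1.0 ± 0.30). The homeobox gene Meis2, abundant in all 6 libraries, overlapped, at 682, 735 and 609 CPM in p18mKO2+ and 599, 517 and 693 CPM in p18mKO2- (0.16 ± 0.15).

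**Figure D2:**
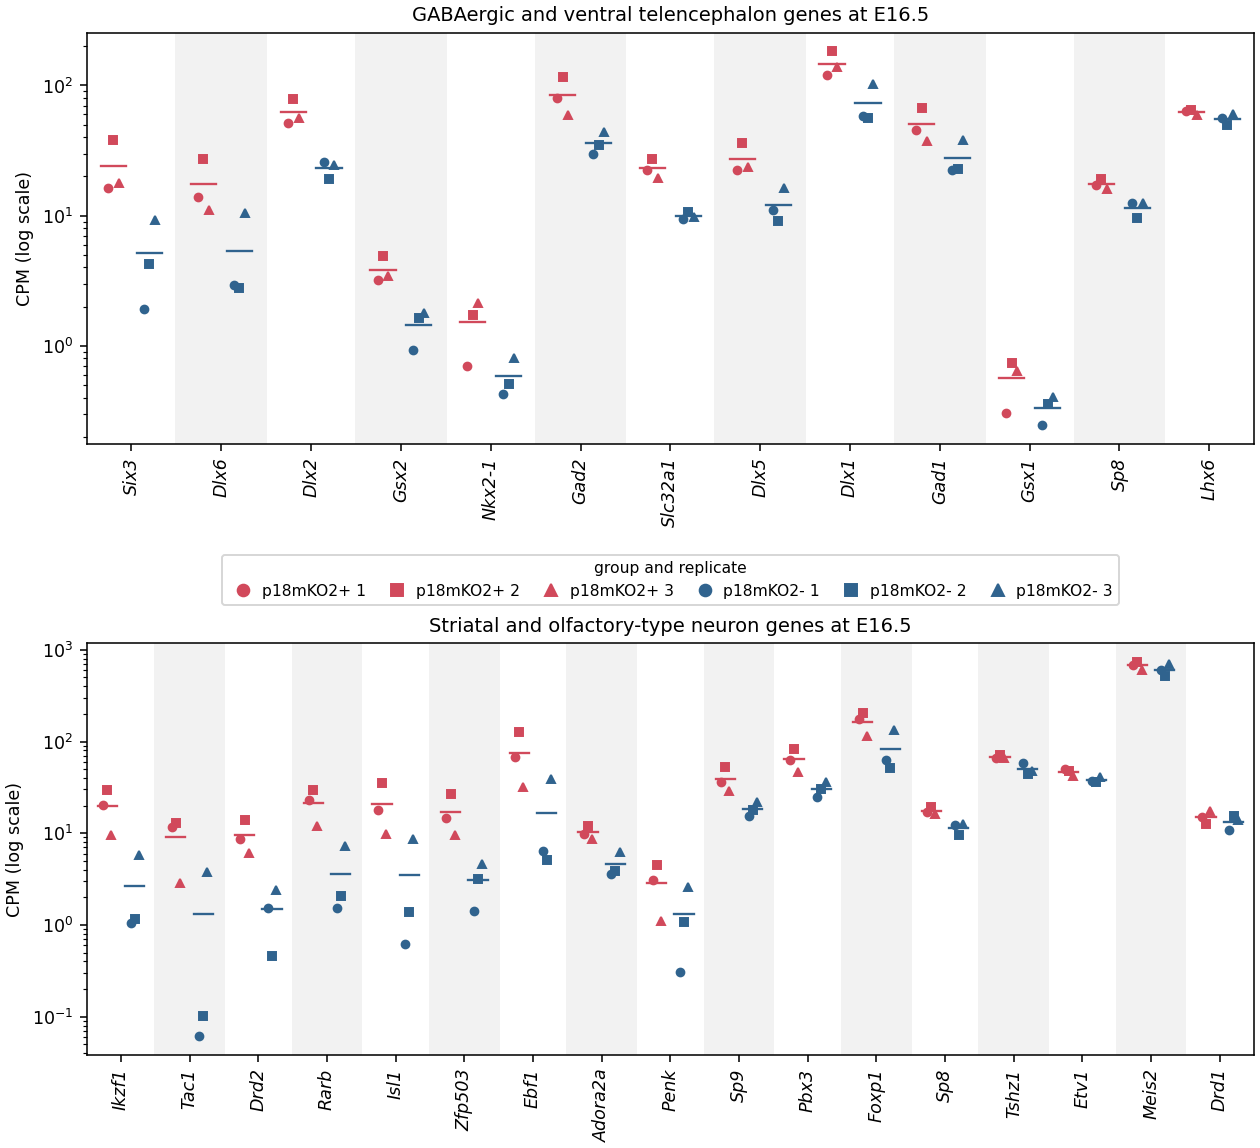
CPM on a log scale for 13 of the 14 GABAergic and ventral telencephalon genes and 17 of the 18 striatal and olfactory-type neuron genes in the E16.5 libraries, ordered by fold change, with p18mKO2+ left of p18mKO2-. Each point is a library and bars are group means; p18mKO2+ means are higher for all genes shown, and p18mKO2- replicate 3 (blue triangle) often lies nearest to the p18mKO2+ libraries.

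Promoter sequence is shown for 4 of these genes, since they combine folds above 1 on the log2 scale, groups that did not overlap and a single window in the promoter table. Of the 12 higher genes named by rule, 7 are in the ventral or striatal lists, and these 4 had exactly 1 window in the RefSeq promoter table (GRCm38.p6, from 250 bases before to 50 after the start). The windows are chr14:16575427-16575726 (minus strand) for Rarb, chr17:85620584-85620883 (plus strand) for Six3, chr2:71546705-71547004 (minus strand) for Dlx2 and chr14:21989552-21989851 (minus strand) for Zfp503, each written 5′ to 3′ along its gene. Capitals mark matches to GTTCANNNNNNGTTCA, 1 form of the direct repeat of a retinoic acid response element, searched on both strands. Other forms were not searched, so a window without a match may hold another form, and shares of windows hold for this form alone.
Rarb: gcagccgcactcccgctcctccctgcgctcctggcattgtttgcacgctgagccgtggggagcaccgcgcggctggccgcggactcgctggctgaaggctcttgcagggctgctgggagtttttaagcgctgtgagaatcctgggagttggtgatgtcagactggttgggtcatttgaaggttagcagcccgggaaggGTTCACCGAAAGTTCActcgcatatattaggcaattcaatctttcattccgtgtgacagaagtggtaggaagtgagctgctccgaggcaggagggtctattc
Six3: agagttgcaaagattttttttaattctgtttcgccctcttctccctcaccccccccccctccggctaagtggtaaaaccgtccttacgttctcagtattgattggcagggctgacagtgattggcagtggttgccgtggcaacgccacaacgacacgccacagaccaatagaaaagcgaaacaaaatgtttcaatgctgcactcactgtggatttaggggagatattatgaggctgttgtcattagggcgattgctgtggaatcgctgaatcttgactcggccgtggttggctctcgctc
Dlx2: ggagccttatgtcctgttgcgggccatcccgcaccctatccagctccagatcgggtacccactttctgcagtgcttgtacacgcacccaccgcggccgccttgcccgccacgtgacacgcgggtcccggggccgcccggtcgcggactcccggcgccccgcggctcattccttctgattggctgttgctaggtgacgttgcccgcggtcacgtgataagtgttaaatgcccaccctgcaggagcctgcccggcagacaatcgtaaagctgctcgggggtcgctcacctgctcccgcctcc
Zfp503: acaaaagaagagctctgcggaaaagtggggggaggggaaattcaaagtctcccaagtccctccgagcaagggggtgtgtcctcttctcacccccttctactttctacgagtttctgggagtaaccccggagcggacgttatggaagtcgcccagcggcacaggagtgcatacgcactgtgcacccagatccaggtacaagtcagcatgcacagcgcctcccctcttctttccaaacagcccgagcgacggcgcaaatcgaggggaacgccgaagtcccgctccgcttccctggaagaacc
Rarb held 1 match, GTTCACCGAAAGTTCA, at bases 199 to 214 of its window. The same pattern was found in 25 of 32851 promoter windows (0.0761%), and in none of the other 3 shown. The homeodomain core TAATTA, present in 5.29% of all windows, was in none of the 4. Such matches describe letters in these windows and say nothing of binding.

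Retinoic acid genes were listed after their values had been seen, because Rarb stood out. Retinoic acid is made from vitamin A by aldehyde dehydrogenases, acts through RAR and RXR receptors and is a known signal of the developing striatum. Of 18 genes, 15 passed the filter (Aldh1a1, Cyp26a1 and Rbp4 did not), 12 had a positive log2 fold change and 5 had groups that did not overlap, against 4.07% of all genes, with a median of 0.51. Rarb, which prompted the list and is also in the striatal list, is among these 5, so their count is not independent of it. The receptor gene Rarb stood at 22.9, 29.9 and 12.02 CPM in p18mKO2+ and 1.53, 2.09 and 7.19 CPM in p18mKO2- (2.58 ± 0.66; edgeR adjusted p = 1; DESeq2 adjusted p = 0.0325). Rxrg, a partner receptor gene, stood at 33.2, 41.3 and 9.63 CPM in p18mKO2+ and 1.23, 1.73 and 5.39 CPM in p18mKO2- (3.33 ± 0.99), and Rara at 10.8, 14.9 and 6.91 CPM in p18mKO2+ and 6.82, 4.78 and 6.61 CPM in p18mKO2- (0.84 ± 0.27), where the groups were almost touching. Stra6, a receptor that takes up retinol, stood at 5.24, 7.34 and 4.24 CPM in p18mKO2+ and 1.11, 3.56 and 2.38 CPM in p18mKO2- (1.25 ± 0.44). Of the synthesizing enzymes, Aldh1a3 was scarce, at 0.453, 3.42 and 2.67 CPM in p18mKO2+ and 0, 0.407 and 0.232 CPM in p18mKO2- (3.28 ± 0.90). The carrier gene Crabp1 overlapped, at 3.07, 6.399 and 1.38 CPM in p18mKO2+ and 0.614, 0.56 and 1.45 CPM in p18mKO2-.

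Summed over the 14 ventral genes, the level was 495, 717 and 500.5 CPM in p18mKO2+ and 264, 255 and 367 CPM in p18mKO2-, and over the 18 striatal genes 1323, 1567 and 1048 CPM in p18mKO2+ and 839, 741 and 1092 CPM in p18mKO2-. The striatal sum of p18mKO2- replicate 3 thus exceeded that of p18mKO2+ replicate 3. The ventral median was 0.94 without p18mKO2+ replicate 2 and 1.38 without p18mKO2- replicate 3; the striatal median was 0.95 and 1.80, and the retinoic acid median 0.42 and 0.67. The share of ribosomal RNA moved with the groups too, and with the level of CT010467.1 as a covariate the ventral, striatal and retinoic acid medians became 0.24, 0.14 and -0.22, with 8 of 14, 11 of 18 and 6 of 15 members positive. Under that covariate the log2 fold change was -0.22 ± 0.53 for Rarb, -0.95 ± 1.05 for Rxrg and -0.40 ± 0.94 for Isl1. It was -1.19 ± 0.77 for Ebf1, -0.68 ± 0.43 for Gad1 and -0.21 ± 0.56 for Gad2. Dlx6 had -0.28 ± 0.81, Stra6 -0.21 ± 0.62 and Crabp1 -0.40 ± 0.91. Nkx2-1 had -0.50 ± 1.40 and Lhx6 -0.25 ± 0.58. Each was opposite in sign to the value without the covariate, but edgeR called none. All but Ebf1 and Gad1 were smaller than their SE. CT010467.1 did not overlap between the groups, so its level and the group cannot be cleanly separated, and these values do not establish a reversal. Dlx2 had 1.41 ± 0.58, Six3 0.53 ± 0.72, Ikzf1 1.32 ± 0.91 and Zfp503 0.35 ± 0.62. With Y-linked expression as a covariate the same medians were 1.08, 1.30 and 0.39.

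Other higher genes named by the rule had varied roles. Tgfa, a ligand of the epidermal growth factor receptor, stood at 32.8, 35.8 and 20.4 CPM in p18mKO2+ and 10.7, 10.9 and 13.96 CPM in p18mKO2- (1.32 ± 0.28; edgeR adjusted p = 0.737; DESeq2 adjusted p = 0.0208). Slc18a2, the vesicular monoamine transporter gene, stood at 6.64, 19.1 and 12.2 CPM in p18mKO2+ and 1.35, 3.97 and 4.17 CPM in p18mKO2- (1.99 ± 0.50; DESeq2 adjusted p = 0.0276). The tetraspanin gene Tspan9 stood at 48.2, 53.97 and 34.2 CPM in p18mKO2+ and 26.95, 25.8 and 18.02 CPM in p18mKO2- (0.95 ± 0.23).

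Astrocyte genes leaned to the higher side. Of 23 listed, 21 passed the filter, 17 had a positive log2 fold change and 6 had groups that did not overlap, against 4.07% of all genes; the median was 0.30 and edgeR and DESeq2 called none. Aldh1l1, whose folate-metabolizing product marks astrocytes, stood at 30.3, 30.4 and 34.5 CPM in p18mKO2+ and 17.01, 20.3 and 16.7 CPM in p18mKO2- (0.81 ± 0.22). The secreted chaperone gene Clu stood at 35.5, 57.7 and 29.6 CPM in p18mKO2+ and 28.00, 26.6 and 15.7 CPM in p18mKO2- (0.80 ± 0.32), and Apoe, the lipid carrier apolipoprotein E, at 38.8, 45.8 and 44.4 CPM in p18mKO2+ and 25.5, 32.96 and 29.7 CPM in p18mKO2- (0.55 ± 0.25). The intermediate filament gene Gfap was low in both groups, at 2.01, 2.43 and 2.81 CPM in p18mKO2+ and 0.982, 0.763 and 1.101 CPM in p18mKO2- (1.35 ± 0.68), without overlap. The gap junction gene Gja1 overlapped, at 24.6, 30.95 and 14.5 CPM in p18mKO2+ and 20.5, 37.6 and 26.2 CPM in p18mKO2-. In the plot of list levels by library the 3 p18mKO2+ means of this list lay at 0.21, 0.42 and 0.31 and the 3 p18mKO2- means at -0.04, 0.13 and -0.09, on a log2 scale relative to the p18mKO2- mean. Of the 11 oligodendrocyte lineage genes 10 passed the filter, with a median of 0.26 (-0.16 with CT010467.1 as a covariate, where the astrocyte median was 0.46) and no gene free of overlap.

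Medians of the progenitor and cell-cycle lists lay close to 0, but moved with the ribosomal RNA level: with CT010467.1 as a covariate they became 0.34 for radial glia, 0.49 for intermediate progenitors, 0.45 for S phase and 0.50 for G2 and mitosis. The 20 radial glia genes had a median of -0.01, with 10 positive and 10 negative. Groups did not overlap on the higher side for 1 of the 20 (5%), close to the 4.07% of all genes. Sox2, the progenitor transcription factor, was the 1 member without overlap, at 93.2, 117 and 98.4 CPM in p18mKO2+ and 78.9, 74.9 and 88.7 CPM in p18mKO2- (0.35 ± 0.14), and Sox9, which progenitors and later astrocytes express, stood at 65.99, 74.9 and 49.5 CPM in p18mKO2+ and 59.8, 42.7 and 37.03 CPM in p18mKO2- (0.45 ± 0.21). The intermediate progenitor gene Eomes stood at 295, 289 and 314 CPM in p18mKO2+ and 386, 307 and 247 CPM in p18mKO2- (-0.07 ± 0.30); the 16 genes of that list had a median of -0.04. Among 30 S phase and DNA replication genes the median was -0.01, 15 each way, and the 1 without overlap was Slbp, which binds histone mRNA, at 44.4, 49.1 and 45.6 CPM in p18mKO2+ and 49.98, 60.6 and 66.4 CPM in p18mKO2- (-0.35 ± 0.17). That 1 of 30 is close to the 3.88% of all genes free of overlap on the lower side. Among 28 G2 and mitosis genes the median was 0.08 and all overlapped.

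Several of these medians depended on p18mKO2- replicate 3, in which cell-cycle and Notch genes were low and neuronal genes high. In that library the 28 G2 and mitosis genes lay 0.55 below the p18mKO2- mean on the log2 scale and the 18 pan-neuronal genes 0.44 above it. The 15 Notch pathway genes had a median of 0.22 (11 positive), which became -0.11 without it. Their only member without overlap was the ligand gene Dll3, at 10.9, 10.3 and 12.02 CPM in p18mKO2+ and 8.596, 7.83 and 7.94 CPM in p18mKO2- (0.44 ± 0.18). That is 6.67% of the list, against 4.07% of all genes on the higher side. Pan-neuronal genes had a median of -0.14, and 0.14 without that library. Deep-layer neuron genes had a median of -0.29, and 0.09 without it, and upper-layer genes -0.11 and -0.05. With CT010467.1 as a covariate the Notch, pan-neuronal, deep-layer and upper-layer medians were 0.44, -0.62, -0.38 and 0.15. Sox5 and Tle4, transcriptional regulators of deep-layer neurons, had groups that did not overlap on the lower side: Sox5 stood at 239, 191 and 250.3 CPM in p18mKO2+ and 301, 288 and 266 CPM in p18mKO2- (-0.33 ± 0.21), and Tle4 at 126, 109 and 135 CPM in p18mKO2+ and 139, 148 and 136 CPM in p18mKO2- (-0.19 ± 0.14). Those 2 of the 12 deep-layer genes compare with 3.88% of all genes. Bcl11b, also of the deep-layer list, had a positive log2 fold change of 0.41 with overlap, and -0.11 ± 0.30 with CT010467.1 as a covariate. Of that list 2 genes were positive and 10 negative. In the upper-layer list Plxnd1 was the 1 positive member, at 0.80 with overlap, and 11 were negative. Bcl11b and Plxnd1 were the only members of their lists with an unadjusted p under 0.05 in edgeR.

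Hem and choroid plexus genes were highest, as a list, in a single p18mKO2+ library. Ttr, the thyroid hormone carrier that marks choroid plexus, stood at 563, 1376 and 300.1 CPM in p18mKO2+ and 275, 439 and 172 CPM in p18mKO2-. Its highest library was p18mKO2+ replicate 2, and p18mKO2+ replicate 1 also lay above every p18mKO2- library. Wnt8b, a Wnt ligand of the cortical hem, stood at 0.101, 3.37 and 0 CPM in p18mKO2+ and at 0 in all 3 p18mKO2- libraries, and Otx2 at 3.78, 14.8 and 2.902 CPM in p18mKO2+ and 2.09, 3.92 and 1.16 CPM in p18mKO2-. The 16 genes of this list had a median of 0.65, which became 0.01 without p18mKO2+ replicate 2 and -1.07 with CT010467.1 as a covariate, and all overlapped.

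**Figure D3:**
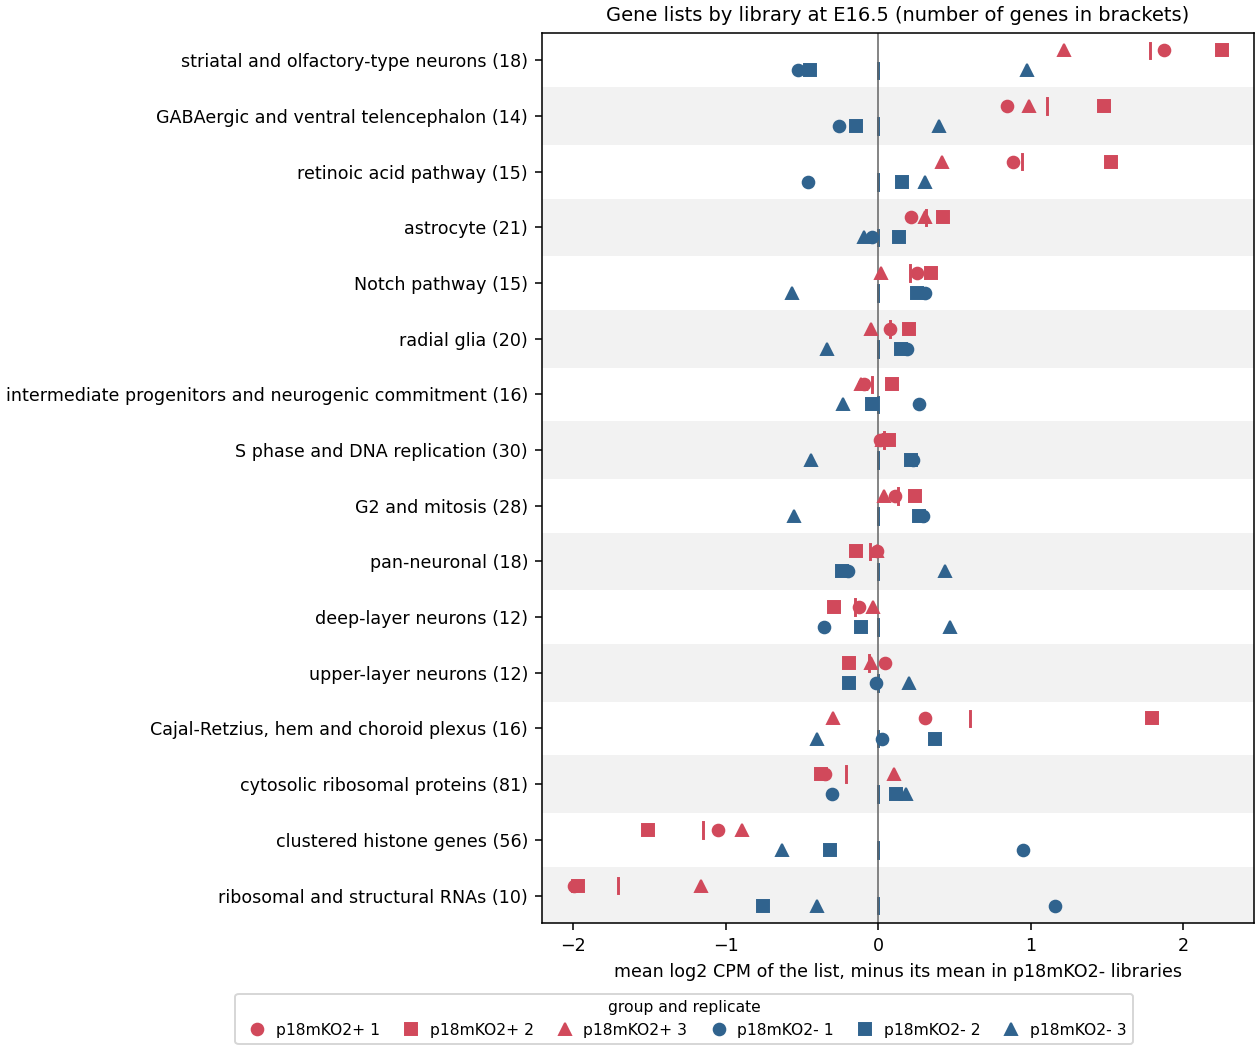
Mean log2 CPM of 16 gene lists in each E16.5 library, relative to the mean of the p18mKO2- libraries; points are libraries, ticks are group means, and p18mKO2+ stands above p18mKO2- in each row. The striatal, ventral, retinoic acid and astrocyte lists separate the groups upwards, ribosomal and structural RNAs and clustered histone genes downwards, and p18mKO2- replicate 3 lies apart in the Notch, cell-cycle and neuronal lists.

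On the lower side the leading genes were ribosomal and structural RNAs, a list made after their values had been seen. All 10 had a negative log2 fold change and 7 had groups that did not overlap, against 3.88% of all genes, with a median of -1.73; DESeq2 called 3, against 0.0954% of all genes. With the level of CT010467.1, itself a member, as a covariate the median was -0.43. The mitochondrial 12S ribosomal RNA gene mt-Rnr1 stood at 914, 849 and 1712 CPM in p18mKO2+ and 5111, 3799 and 4121 CPM in p18mKO2- (-1.91 ± 0.29; edgeR adjusted p = 0.154), and the 16S gene mt-Rnr2 had a log2 fold change of -1.91 ± 0.30 (adjusted p = 0.154); these were the 2 genes that limma-voom called. CT010467.1, on chromosome 17, stood at 26162, 16646 and 39641 CPM in p18mKO2+ and 151990.0, 87177 and 70619 CPM in p18mKO2- (-1.91 ± 0.39). The nuclear RNAs were lower as well. Rn7sk, the 7SK RNA that holds the elongation factor P-TEFb inactive, stood at 35.6, 33.2 and 65.1 CPM in p18mKO2+ and 236, 78.1 and 129.6 CPM in p18mKO2- (-1.73 ± 0.39), and the nuclear noncoding RNA Malat1 at 391, 443 and 504 CPM in p18mKO2+ and 1243, 583 and 1693 CPM in p18mKO2- (-1.40 ± 0.34). Rpph1, the RNA of ribonuclease P, stood at 0.906, 1.49 and 5.67 CPM in p18mKO2+ and 17.3, 5.85 and 9.16 CPM in p18mKO2- (-1.99 ± 0.61). The near-identical copies Rn7s1 and Rn7s2 share reads, and their split between libraries is uncertain.

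Clustered histone genes, whose mRNAs mostly end without a poly(A) tail, were also lower. This list was made after values had been seen, and only from genes that passed the filter on low counts. A histone gene low in p18mKO2+ could pass through other libraries, so the counts that follow partly reflect the filter. Of 56 that passed the filter, 52 had a negative log2 fold change and 16 had groups that did not overlap, against 3.88% of all genes, with a median of -1.47; DESeq2 called 1, against 0.0954% of all genes. Hist1h2bg stood at 0.252, 0.149 and 0.415 CPM in p18mKO2+ and 3.81, 2.03 and 1.51 CPM in p18mKO2- (-3.14 ± 0.74; DESeq2 adjusted p = 0.0269), Hist1h2bk at 0.201, 0.397 and 0.691 CPM in p18mKO2+ and 3.44, 2.29 and 1.33 CPM in p18mKO2- (-2.43 ± 0.69), and Hist1h3h at 0.0503, 0.298 and 0 CPM in p18mKO2+ and 1.596, 2.14 and 0.695 CPM in p18mKO2-. Levels of Hist1h2bg, Hist1h2bk and Hist1h3h were at or under a few CPM, and copies of clustered histone genes are alike, so the share of each is uncertain. Summed over the 56 genes, the level was 191, 178 and 244 CPM in p18mKO2+ and 336, 251 and 256 CPM in p18mKO2-. The summed groups were thus close, with p18mKO2+ replicate 3 just under p18mKO2- replicate 2. Without p18mKO2- replicate 1, the highest library, the median became -0.60, and with the level of CT010467.1 as a covariate it became 0.59. Most of these RNAs have no poly(A) tail of the usual kind, and ribosomal, structural and histone RNAs were low in the same 3 libraries; the part of RNA selection in this was not tested.

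**Figure D4:**
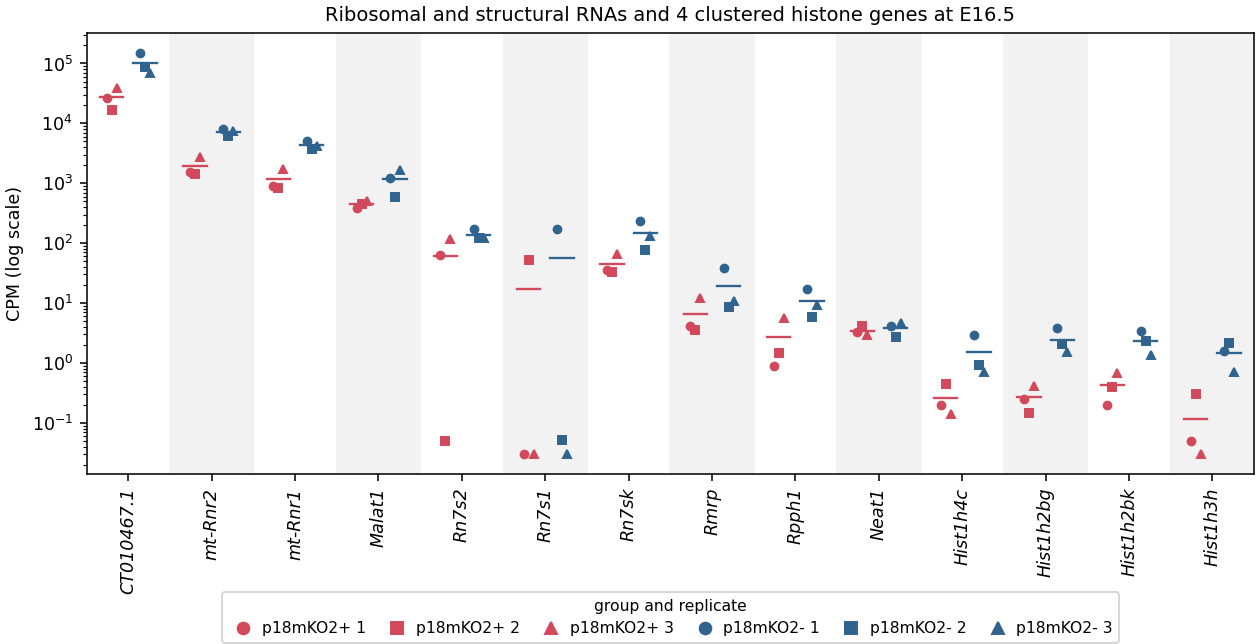
CPM on a log scale for 10 ribosomal and structural RNAs and 4 clustered histone genes in the E16.5 libraries, p18mKO2+ left of p18mKO2-; values of 0 are drawn at the bottom of the axis. p18mKO2+ libraries lie below p18mKO2- libraries for CT010467.1, mt-Rnr2, mt-Rnr1, Malat1, Rn7s2, Rn7sk, Rpph1 and the 4 histone genes.

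The remaining lower genes named by the rule encode proteins of varied function. Fat4, an atypical cadherin of radial glia, stood at 186, 168 and 160.3 CPM in p18mKO2+ and 264, 232 and 283 CPM in p18mKO2- (-0.60 ± 0.14; edgeR adjusted p = 0.899; DESeq2 adjusted p = 0.0358). B3galt2, a galactosyltransferase gene, stood at 33.9, 29.96 and 42.5 CPM in p18mKO2+ and 42.9, 59.1 and 73.4 CPM in p18mKO2- (-0.72 ± 0.20), and the RNA-binding protein gene Khdrbs2 at 22, 19.8 and 27.9 CPM in p18mKO2+ and 31.9, 39.2 and 44.7 CPM in p18mKO2- (-0.73 ± 0.21). Mdn1, an ATPase of ribosome assembly, stood at 74.00, 66.2 and 53.6 CPM in p18mKO2+ and 92.5, 81.04 and 90.6 CPM in p18mKO2- (-0.45 ± 0.13). The scaffold gene Mpp7 had a log2 fold change of -0.60 ± 0.17 and the zinc-finger gene Zfp58 one of -0.79 ± 0.22. Cytosolic ribosomal protein genes had small negative folds in 80 of 81, with a median of -0.21, but all 81 overlapped. That median was -0.10 without p18mKO2- replicate 3, -0.12 without p18mKO2+ replicate 2, -0.35 without p18mKO2+ replicate 3, -0.33 without p18mKO2- replicate 1 and 0.07 with CT010467.1 as a covariate.

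Genes called at E13.5 shared their direction at E16.5 about as often as not. In the same fit edgeR called 1810 genes at E13.5 (10.8%). That count was 927 without E13.5 p18mKO2+ replicate 1, 933 without E13.5 p18mKO2+ replicate 3, 1140 without E13.5 p18mKO2- replicate 2, 929 with the Y-linked covariate and 729 with the ribosomal RNA covariate. Of the 1810, 842 (46.5%) had the same sign at E16.5. Of 1224 genes higher in p18mKO2+ at E13.5 (7.29% of all genes), 506 (41.3%) had a positive fold change at E16.5, and their median E16.5 value was -0.04; of 586 lower genes (3.49%), 336 (57.3%) had a negative one, with a median of -0.03. The E16.5 groups did not overlap in the E13.5 direction for 77 of the 1810 (4.25%) and in the opposite direction for 78 (4.31%), close to the 4.07% and 3.88% of all genes that were free of overlap on the higher and lower side. The E13.5 and E16.5 libraries are separate, and no test was made of these shares. Transcripts of embryo sex were uneven at E13.5 too. The p18mKO2- libraries and p18mKO2+ replicate 1 held Xist and almost no Y-linked transcripts, and p18mKO2+ replicate 2 the reverse. Replicate 3 of p18mKO2+ held both (Xist at 1246 CPM, Y-linked genes summing to 88.9 CPM).

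List medians are set side by side for both stages, and their differences were not tested. The ventral list had medians of 1.19 at E16.5 and 1.11 at E13.5 and the striatal list 1.13 and 0.82. The S phase list had -0.01 at E16.5 and -0.83 at E13.5, G2 and mitosis 0.08 and -0.77, and radial glia -0.01 and -0.64. Pan-neuronal genes had -0.14 at E16.5 and 1.01 at E13.5, and deep-layer genes -0.29 and 0.77. For single genes the difference between stages was tested, and edgeR called it in 453 of 16798 genes (2.7%). That count fell to 225, 124 and 179 without E16.5 p18mKO2+ replicates 1, 2 and 3, to 200 without E13.5 p18mKO2+ replicate 1 and to 246 without E13.5 p18mKO2- replicate 2. Of the 14 ventral genes none was called and of the 18 striatal genes 2; in the deep-layer list the number was 6 of 12 and in the radial glia list 3 of 20.

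**Figure D5:**
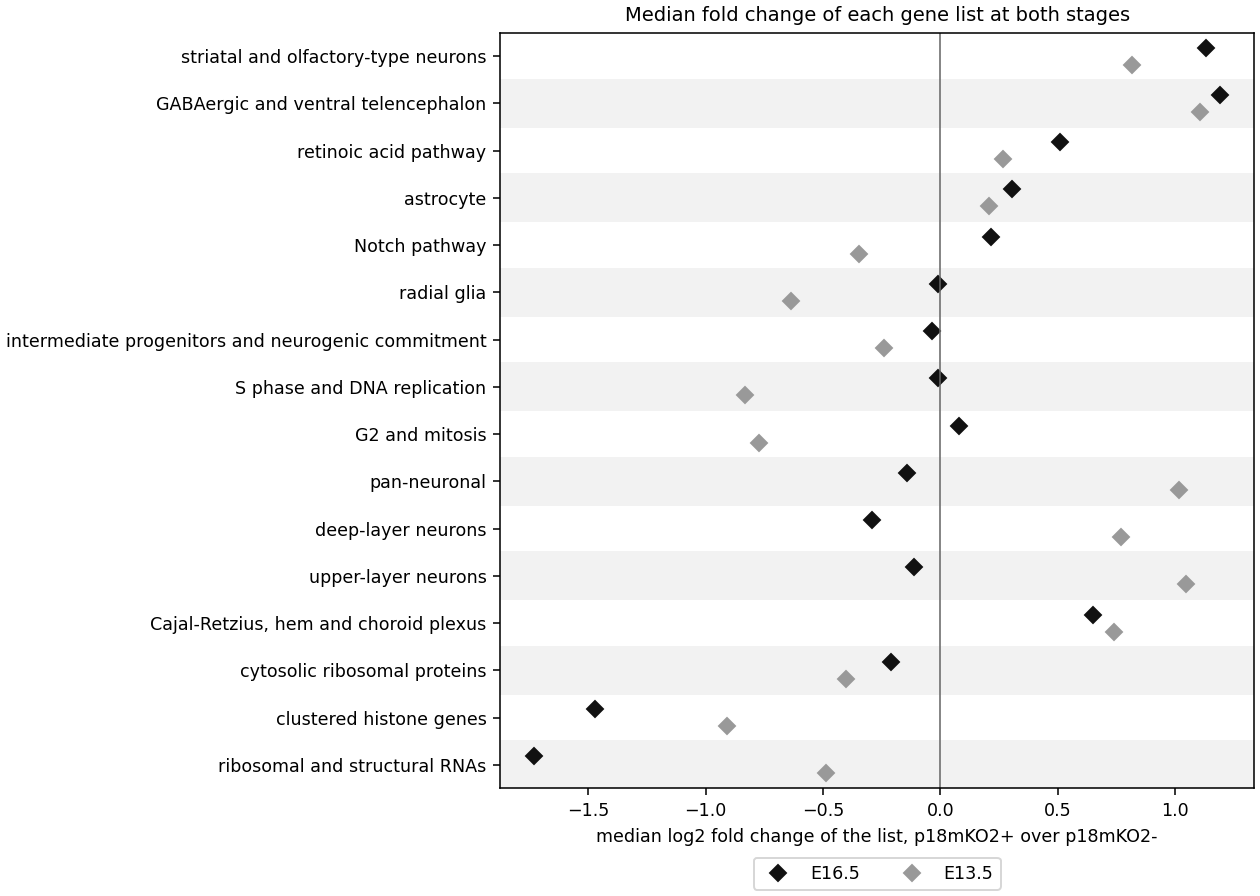
Median log2 fold change, p18mKO2+ over p18mKO2-, of the same 16 lists at E16.5 (black) and E13.5 (grey). The ventral and striatal lists lie above 0 at both stages, while the pan-neuronal, deep-layer, upper-layer, S phase, G2 and radial glia lists lie away from 0 at E13.5 and within 0.3 of it at E16.5.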

How the data were processed

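The authors deposited 1 table per library, which per the file headers holds an expected count for every gene, as RSEM estimates it by sharing multi-mapped reads, a TPM value, which is scaled to effective length and library total, and an average transcript length. Per the submitters' processing notes the tools were RSEM 1.2.31, STAR 2.7.2b and cutadapt 3.4, on GRCm38 (mm10). Which annotation release was used, and whether counting used strand, is unknown here. The tables list 55487 gene identifiers; 55141 matched a symbol and 55227 were in the GENCODE annotation used for positions.

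Expected counts were rounded, 16798 genes passed filterByExpr, and edgeR 4.0.16 quasi-likelihood models (R 4.3.3, TMM, Benjamini-Hochberg) were fitted to all 12 libraries with 1 mean per group, leaving 8 residual degrees of freedom. SE is the absolute log2 fold change over the square root of F. CPM uses TMM-scaled totals. Cdkn2c TPM was tested by exact permutation (scipy). Alternatives used DESeq2 1.42.0, limma 3.58.1 (voom), RLE factors, other filters, a replicate block, the E16.5 libraries alone, each library left out, and covariates for Y-linked genes and CT010467.1. The pipeline was tested on simulated counts.

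Members, gene lists and tests were chosen with earlier results of these data known. Genes were named by rule: Cdkn2c, the 12 higher and 12 lower genes with the smallest unadjusted p among those with no overlap and a mean TPM of at least 5 in the higher group (pseudogenes, predicted, Riken and mitochondrial genes excluded), genes called by DESeq2 or voom under the same conditions, all CDK inhibitors and G1 genes, and up to 4 members of each list. Further list members, and the retinoic acid, structural RNA and histone lists, were chosen after their values were seen. Some genes these rules select are not reported here; list counts include them. Figures were drawn with matplotlib.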

Additional observations from a re-analysis of the deposited data

Results flagged for a closer look

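The difference between stages (log2 fold change of p18mKO2+ over p18mKO2- at E16.5 minus that at E13.5, with its SE) passed an edgeR test at an adjusted p under 0.05 for 14 of 87 genes named here, with adjusted p from 0.00181 to 0.0412. Among all 16798 genes it passed for 453 (2.7%). The named genes were partly chosen by their values, so these shares cannot be compared as like with like. For 5 of them the difference was positive. Id4, an inhibitor of bHLH factors, had a difference of 1.48 ± 0.20 (adjusted p = 0.00181), from 0.25 ± 0.14 at E16.5 and -1.23 ± 0.14 at E13.5. Sox2 had a difference of 0.94 ± 0.19, from 0.35 ± 0.14 and -0.59 ± 0.14. The Notch target Hes5 had 1.32 ± 0.32, from 0.40 ± 0.23 and -0.93 ± 0.22, and the dorsal homeobox gene Emx2 0.99 ± 0.22, from -0.03 ± 0.16 and -1.02 ± 0.16. The striatal zinc-finger gene Tshz1 had 0.85 ± 0.20, from 0.43 ± 0.14 and -0.41 ± 0.14.

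For the other 9 genes the difference was negative. Sox5 had -1.73 ± 0.30 (adjusted p = 0.00875), from -0.33 ± 0.21 at E16.5 and 1.40 ± 0.21 at E13.5. Ldb2, a deep-layer cofactor gene, had -2.03 ± 0.47 and Tle4 -0.97 ± 0.20, with E16.5 values of -0.55 and -0.19. Bcl11b, a regulator of subcortical projection neurons, had -1.15 ± 0.27. Its fold change was positive at both stages, 0.41 at E16.5 and larger at E13.5. The ETS factor gene Etv1 had -0.95 ± 0.22 and the GABA transporter gene Slc6a11 -1.54 ± 0.30, each with positive values at both stages (0.28 ± 0.15 and 0.46 ± 0.20 at E16.5, 1.23 ± 0.16 and 2.0 ± 0.22 at E13.5). Fat4 had -1.02 ± 0.19 (adjusted p = 0.0155), B3galt2 -1.24 ± 0.29 and Khdrbs2 -1.46 ± 0.30, from negative values at E16.5 (-0.60 ± 0.14, -0.72 ± 0.20 and -0.73 ± 0.21) and positive ones at E13.5 (0.42 ± 0.14, 0.52 ± 0.21 and 0.73 ± 0.22).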

How the results depend on the processing

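The count of 0 genes called at E16.5 became 16 with DESeq2, 2 with limma-voom, 81 without a filter on low counts and 1 without the 2 libraries of both sexes (p18mKO2+ replicate 3 of each stage, chosen after seeing the data), and lay between 0 and 1 when single libraries were left out. It stayed 0 with RLE size factors, a filter on mean CPM at 5, the replicate block, the 6 libraries of E16.5 alone and either covariate. The 453 genes called for the difference between stages became 1122 with DESeq2, 1168 without a filter, 294 with the Y-linked covariate, 149 without the libraries of both sexes, and 124 to 525 when single libraries were left out, the lowest without E16.5 p18mKO2+ replicate 2. The 46.5% of E13.5-called genes with the same sign at E16.5 became 49.2% without a filter, 59.0% with the Y-linked covariate, 43.2% with the ribosomal RNA covariate, 41.0% without the libraries of both sexes and 36.8% to 57.7% without single libraries. The causes were not tested. The Cdkn2c difference of 17.3 TPM was 5.87 in CPM and 13.8 to 21.4 TPM without single libraries, and with replicate numbers as pairs its exact sign-flip p was 0.25, the smallest that 3 pairs allow. Replicate numbers were not shown to pair the libraries: same-numbered libraries had correlations of deviations of 0.10, 0.061 and 0.15, not all above 0.1, although each correlated best with its own number. With the replicate block 499 genes were called for the difference between stages. With 3 libraries a group, totals of 18225800 to 21669700 counts and genes at a few CPM, small differences were not detectable. Of 1899 log2 fold changes of 87 genes under the alternatives, 1791 kept their direction and side of the threshold, 48 passed the threshold there and 60, in 29 genes, changed sign. With the ribosomal RNA covariate 23 changed sign, to Bcl11b -0.11, Ccnd1 -0.36, Ccne1 0.47, Cdk4 0.37, Cdkn1b 0.015, Cdkn2d 0.28, Crabp1 -0.40, Dlx6 -0.28, Ebf1 -1.19, Emx1 0.72, Emx2 0.15, Eomes 0.69, Gad1 -0.68, Gad2 -0.21, Isl1 -0.40, Lhx6 -0.25, Nkx2-1 -0.50, Otx2 -1.45, Rarb -0.22, Rxrg -0.95, Sox5 0.19, Stra6 -0.21 and Tac1 -3.11. Of these 23, all but Ccne1, Cdk4, Ebf1, Emx1, Eomes, Gad1 and Tac1 were smaller than their SE, and edgeR called none. With the Y-linked covariate 5 changed sign, to Ccnd1 -0.23, Cdk2 -0.14, Drd1 -0.073, Eomes 0.032 and Pax6 -0.068. When single libraries were left out 11 genes changed sign at least once, with ranges of Ccnd1 -0.13 to 0.15, Ccne1 -0.30 to 0.15, Cdk2 -0.21 to 0.18, Cdk4 -0.12 to 0.060, Cdk6 -0.20 to 0.40, Cdkn1c -0.72 to 0.014, Cdkn2d -0.21 to 0.17, Emx2 -0.16 to 0.10, Eomes -0.20 to 0.13, Ldb2 -0.82 to 0.11 and Pax6 -0.19 to 0.14. Cdkn2d became 0.0085 without a filter and 0.0069 with the filter on mean CPM, and Emx2 0.092 without the libraries of both sexes.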

Other observations

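Some lists not described above are given here for E16.5, and in each of them the groups overlapped for every member. The 17 Wnt and hem signalling genes had a median log2 fold change of 0.36, 14 of them positive, and all overlapped; their mean log2 CPM relative to p18mKO2- was 0.16, 1.42 and 0.13 in p18mKO2+ replicates 1 to 3, against 0.01, -0.01 and 0.00 in p18mKO2- replicates, so replicate 2 of p18mKO2+ was the high one; leaving it out gave a median of 0.14, and leaving out p18mKO2- replicate 3 gave 0.75. Of 12 ependymal and ciliary genes, 10 passed the filter and 9 were positive, with a median of 0.59 and relative means of 0.60, 1.06 and -0.46 in p18mKO2+, against 0.16, 0.00 and -0.16 in p18mKO2-, again with overlap; the median was 0.33 with p18mKO2+ replicate 2 left out and 0.34 with p18mKO2- replicate 3 left out. Meninges and fibroblast genes had negative folds in 11 of 12, with a median of -0.30, which became -0.76 when p18mKO2+ replicate 2 was left out and -0.05 when replicate 3 of that group was, and p18mKO2+ replicate 3 was the lowest library; all overlapped. The 13 genes of the RB and E2F list, through which CDK4 and CDK6 act, had a median of 0.01. The 13 mitochondrially encoded mRNAs had a median of -0.50, which became 0.28 without p18mKO2- replicate 3. With CT010467.1 as a covariate the medians were 0.08 for Wnt and hem signalling, 0.71 for ependymal, -2.0 for meninges and -0.92 for mitochondrially encoded genes.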
